A study of Mus musculus with 8 samples.

Results

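Genes of cholesterol synthesis and its control, 8 of the 27998 genes in the count tables, were followed across an interferon response in mouse blood stem and progenitor cells. They were taken from the tables by symbol, and each had at least 14 counts in every mouse. Hmgcs1, Idi1 and Fdps belong to the early, mevalonate arm of synthesis, Fdft1, Sqle and Cyp51 to the later squalene and sterol arm, and Insig1 and Srebf2 to its control.

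Cells make cholesterol from acetyl-CoA through mevalonate, isoprenoids, squalene and lanosterol, and the same isoprenoids also feed protein prenylation and ubiquinone. When sterols in the endoplasmic reticulum are low, SREBP-2, the product of Srebf2, is carried to the Golgi and cut, and its released part switches on the enzyme genes and Insig1. INSIG-1 holds the precursor back when sterols are high, so it is both a target and a brake of the pathway.

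Bone marrow of wild-type mice aged 12 to 14 weeks was sorted for LK cells (lineage-negative, cKit+), to which LK CD150+ CD48- CD34- hematopoietic stem cells (HSCs) had been added. Mice had received 100 μl of PBS (control) or a subcutaneous dose of 50000 IU of IFNα per 20 g of mouse, and were taken 3, 24 or 72 h after IFNα. Each of the 4 groups held 4 mice, told apart by hashtag antibodies within 1 droplet library, so time point and library cannot be told apart. All groups share the same sort and strain and differ in the injection, the time after it and the library.

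The 16 mice gave between 58 and 1240 kept cells and between 1102706 and 26446327 unique molecular identifiers (UMIs) each. Control mouse 4, with 58 cells, stands apart from the others, and each called change of the 8 genes that it enters is also given without it. The median kept cell held 14763 to 18964.5 UMIs in 3 libraries and 12017 in that of 3 h, and no pair of libraries shared more than 1 kept barcode. Control cells were clustered and the treated cells received the control labels, which gave HSC-like, LMPP-like (lymphoid-primed multipotent), MK (megakaryocyte) progenitor-like, erythroid progenitor-like and myeloid progenitor-like classes. Unnamed clusters held a mean of 16.6% of kept cells in control and 17.7%, 14.8% and 17.0% at 3, 24 and 72 h. These and a small basophil, mast cell and eosinophil progenitor-like class entered the summed values but were not tested as classes. As a check of the treatment labels, all 16 listed interferon-stimulated genes were higher at 3 h and at 24 h than in control. At 72 h, 1 of them was higher and 3 were lower.

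The genes lie apart in the genome (GENCODE vM21 on GRCm38, the assembly also called mm10). Hmgcs1 is at chr13:119690379-119708260 and Idi1 at chr13:8885501-8892451, both on the + strand. Fdps is at chr3:89093588-89101959 and Fdft1 at chr14:63145150-63179578, both on the - strand. Sqle is at chr15:59315077-59331192 on the + strand and Cyp51 at chr5:4081145-4104746 on the - strand. Insig1 is at chr5:28071363-28078662 and Srebf2 at chr15:82147181-82205379, both on the + strand.

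Promoters of 5 of the 8 genes (Hmgcs1, Idi1, Cyp51, Insig1 and Srebf2) were in the RefSeq table on GRCm38.p6. Those of Fdps, Fdft1 and Sqle were not. The 250 bases before each start were searched on both strands for 3 motifs, namely the core of the sterol element that SREBP binds (TCACNCCA), the NF-Y box CCAAT, which often stands beside it, and the core of the interferon element (GAAANNGAA). The sterol core was found in Hmgcs1 and Srebf2, 2 of 5, against 3.67% of 32851 promoters. All 5 held CCAAT or its complement, against 33.8% of promoters. In Idi1 and Cyp51 each such match lay inside a transcript that GENCODE places there. None of the 5 held the interferon core, which 7.13% of promoters hold. The motifs do not overlap each other in the stretches shown, and a match is only a match of letters. The matches of the sterol core start 137 bases (Hmgcs1) and 162 bases (Srebf2) before the RefSeq start. Shown here are the stretches of these 2 genes, and of Insig1, whose summed level changed most of the 8 at 3 h. Those of Srebf2 and Insig1 are cut where GENCODE places the first transcript, and that of Hmgcs1 runs to the RefSeq start. Capitals mark TCACCCCA and CCAAT or its complement ATTGG.
Hmgcs1, chr13:119690101-119690350, + strand: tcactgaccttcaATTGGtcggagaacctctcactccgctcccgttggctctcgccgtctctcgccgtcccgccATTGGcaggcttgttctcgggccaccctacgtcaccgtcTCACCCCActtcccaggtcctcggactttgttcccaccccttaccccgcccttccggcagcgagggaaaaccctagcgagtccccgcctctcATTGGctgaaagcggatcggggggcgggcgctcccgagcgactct
Srebf2, chr15:82147019-82147180, + strand: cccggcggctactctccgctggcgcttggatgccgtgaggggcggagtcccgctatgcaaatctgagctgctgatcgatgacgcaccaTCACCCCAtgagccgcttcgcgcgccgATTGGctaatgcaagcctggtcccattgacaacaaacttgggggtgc
Insig1, chr5:28071162-28071362, + strand: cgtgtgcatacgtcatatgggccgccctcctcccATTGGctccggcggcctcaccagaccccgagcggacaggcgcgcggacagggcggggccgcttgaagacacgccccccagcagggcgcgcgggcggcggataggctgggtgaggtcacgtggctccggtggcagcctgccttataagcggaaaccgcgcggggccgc

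In control mice most of the 8 genes were highest in the HSC-like or MK progenitor-like class, and Fdps was highest in the myeloid progenitor-like class. Levels are counts per 1e6 UMIs (CPM) within a class, for mice with at least 10 cells of it, which left 3 control mice in the LMPP-like, MK and erythroid progenitor-like classes. Since the classes were made from the same cells, these levels are a description with no test. Srebf2 was at 55.8 ± 14.4 CPM (SD, n = 4) in HSC-like cells, 38.2 ± 5.25 in MK progenitor-like, 31.8 ± 2.97 in LMPP-like, 11.3 ± 2.63 in erythroid progenitor-like (each n = 3) and 10.4 ± 2.41 in myeloid progenitor-like cells (n = 4). Its values in the HSC-like, MK and LMPP-like classes overlapped between neighbors in that order, as did those of the erythroid and myeloid classes, while the first 3 classes lay above the last 2 in every mouse. The overlap of HSC-like with MK came from control mouse 4 alone (38.2 CPM on 5 UMIs).

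Insig1 followed the same order at the top, with 52.6 ± 7.98 CPM in HSC-like, 38.7 ± 8.81 in MK progenitor-like and 24.4 ± 3.83 in LMPP-like cells. It was at 15.8 ± 3.41 CPM in myeloid and 11.3 ± 2.45 in erythroid progenitor-like cells, which overlapped. The 14α-demethylase gene Cyp51 was at 36.1 ± 5.37 CPM in HSC-like and 33.2 ± 8.47 in MK progenitor-like cells, against 12.4 ± 2.25 in myeloid and 11.5 ± 1.41 in erythroid progenitor-like cells. HSC-like and MK progenitor-like cells overlapped for all 8 genes except Fdps.

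Squalene synthase (Fdft1) was at 21.1 ± 6.64 CPM in HSC-like cells and 6.63 ± 0.856 in myeloid progenitor-like cells, without overlap. Squalene epoxidase (Sqle) was at 26.9 ± 8.70 and 13.7 ± 3.69 CPM in these 2 classes. The mice overlapped only through control mouse 4, with 2 UMIs in HSC-like and 8 in myeloid progenitor-like cells. Isopentenyl diphosphate isomerase (Idi1) was at 58.6 ± 8.58 and 21.9 ± 0.900 CPM, without overlap. HMG-CoA synthase (Hmgcs1) was at 24.9 ± 12.3 and 16.5 ± 3.14 CPM with overlap, the lowest HSC-like value coming from 1 UMI in control mouse 4, and was lowest in erythroid progenitor-like cells at 7.22 ± 1.34. Of the 8 genes Fdps alone, whose enzyme makes farnesyl diphosphate at the branch point to sterols and prenyl groups, had its highest mean in myeloid progenitor-like cells (145 ± 14.4 CPM), and there every mouse lay above the HSC-like cells of every mouse (69.3 ± 9.34).

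**Figure D1:**
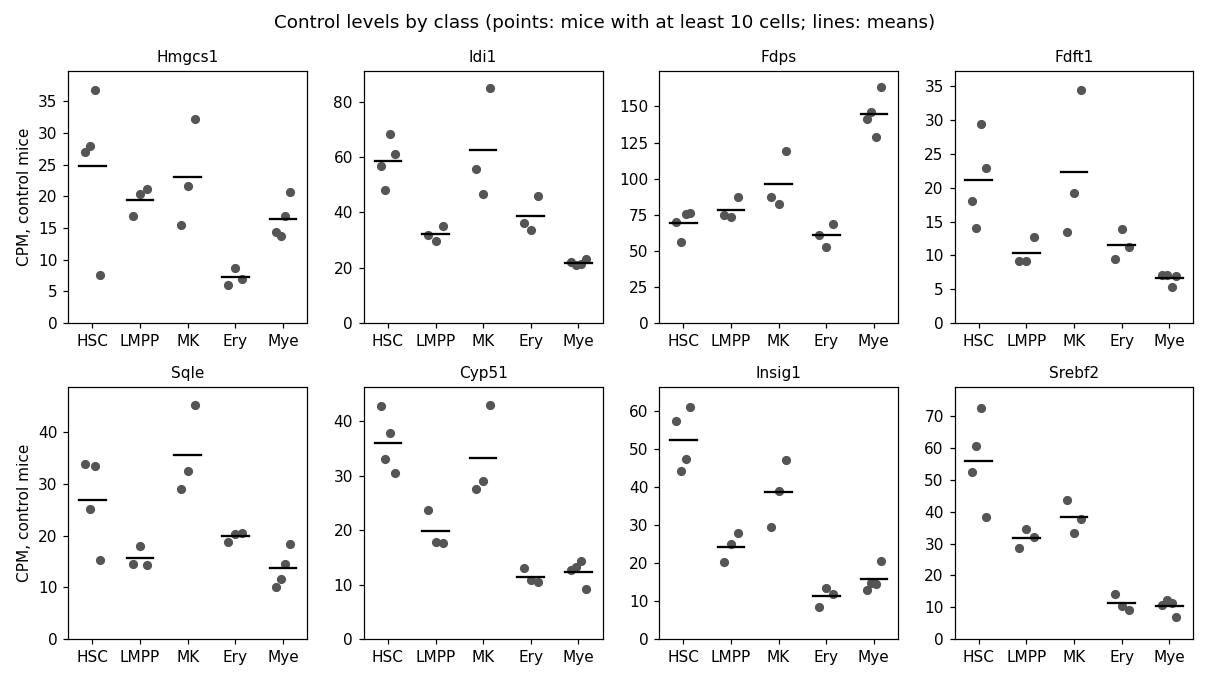
Levels of the 8 genes in control mice (CPM, vertical axis) in the HSC-like, LMPP-like, MK, erythroid (Ery) and myeloid (Mye) progenitor-like classes; points are mice and lines are means. Srebf2 and Insig1 stand high in HSC-like cells (means 55.8 and 52.6) and low in myeloid cells (10.4 and 15.8), and Fdps the reverse (69.3 and 145).

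When all kept cells of a mouse were summed, Insig1 and Fdps were the 2 members called at 3 h, in opposite directions. A gene was called when edgeR's quasi-likelihood test gave an adjusted p under 0.05 (Benjamini-Hochberg over all 12042 tested genes). Of all genes tested, 19.7% were called higher and 19.2% lower at 3 h, beside 1 of the 8 in each direction. At 24 h 0 members were called higher and 1 lower, against 14.5% and 13.8% of all genes. At 72 h 3 were higher and 1 lower, against 18.9% and 18.5%. The median absolute log2 change of the 8 genes was 0.16 at 3 h, 0.09 at 24 h and 0.24 at 72 h, beside 0.21, 0.15 and 0.19 over all tested genes.

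In the mevalonate arm, Fdps was the gene that passed at all 3 times. Control mice had 103, 103, 100.4 and 119 CPM, and mice at 3 h had 83.1, 80.9, 73.5 and 93.1. At 24 h Fdps was at 84.5, 82.2, 94.2 and 88.2 CPM and at 72 h at 83.1, 81.5, 83.7 and 74.4. Every treated mouse lay below every control mouse. Fdps fell by 0.34 ± 0.07 (log2, ± SE, adjusted p = 0.000269) at 3 h, by 0.25 ± 0.06 (adjusted p = 0.00303) at 24 h and by 0.36 ± 0.06 (adjusted p = 8.93e-05) at 72 h. Without control mouse 4 the changes were -0.32, -0.23 and -0.34 and remained called.

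Idi1 had 33.5, 29.4, 38.4 and 33.9 CPM in control mice and 46.8, 45.7, 38.8 and 37.0 at 72 h, where 3 of 4 mice lay above every control mouse. It rose by 0.32 ± 0.12 (log2, adjusted p = 0.0352), and by 0.31 (adjusted p = 0.0445) without control mouse 4. The call was lost when any of 4 single mice was left out, namely control mouse 1 or 2 or 72 h mouse 1 or 2. Its log2 differences of 0.16 at 3 h and 0.23 at 24 h were not called. Hmgcs1, whose enzyme commits acetyl units to the pathway, ranged from 13.9 to 19.9 CPM over all 16 mice and was called at no time (log2 differences -0.10, -0.04 and -0.03).

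The squalene and sterol arm showed 1 call. Cyp51 had 19.3, 17.3, 20.1 and 20.0 CPM in control mice and 23.1, 21.7, 24.5 and 20.7 at 72 h, so that every mouse at 72 h was above every control mouse. It rose by 0.25 ± 0.09 (log2, adjusted p = 0.0357; 0.0413 without control mouse 4), a call that DESeq2, library-size scaling, removal of a transcript-length trend and 4 of 16 left-out mice (control 1 or 2, 72 h 1 or 3) each ended. Sqle differed by 0.22 ± 0.14 at 3 h and 0.24 ± 0.12 at 72 h, neither called, and Fdft1 by -0.07, -0.11 and -0.08 at the 3 times.

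Among the regulators, Insig1 was highest at 3 h. It was at 19.3, 20.2, 22.0 and 24.4 CPM in control mice and at 30.4, 36.4, 27.1 and 31.3 CPM at 3 h, each mouse above every control mouse. It rose by 0.58 ± 0.11 (log2, adjusted p = 0.000197; 0.59 without control mouse 4) and was at 17.8, 22.2, 21.6 and 18.5 CPM at 24 h. From 3 to 24 h, 12.3% of all genes were called higher and 16.3% lower, and Insig1 alone of the 8 was called, lower by log2 -0.62 ± 0.10 (adjusted p = 8.63e-05, and -0.62 without control mouse 4). From 24 to 72 h, where 3.7% of genes were called higher and 5.38% lower, edgeR and DESeq2 called 0 of the 8, with 2 at an unadjusted p under 0.05.

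Srebf2, the master regulator, was highest at 72 h. Its control values were 22.0, 23.2, 24.4 and 18.3 CPM, and those at 72 h were 30.8, 31.5, 26.4 and 25.0, each above every control mouse. It rose by 0.31 ± 0.08 (log2, adjusted p = 0.00417; 0.29 without control mouse 4). At 3 h its mice spanned 20.3 to 23.4 CPM, inside the control range, with a log2 difference of -0.07 ± 0.09. With the shares of the cell classes held at their control values, as described further on, the difference at 72 h was -0.05 (22.1 against 22.7 CPM, adjusted p = 0.83) and the call ended, as did those of Fdps, Idi1 and Cyp51 above.

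**Figure D2:**
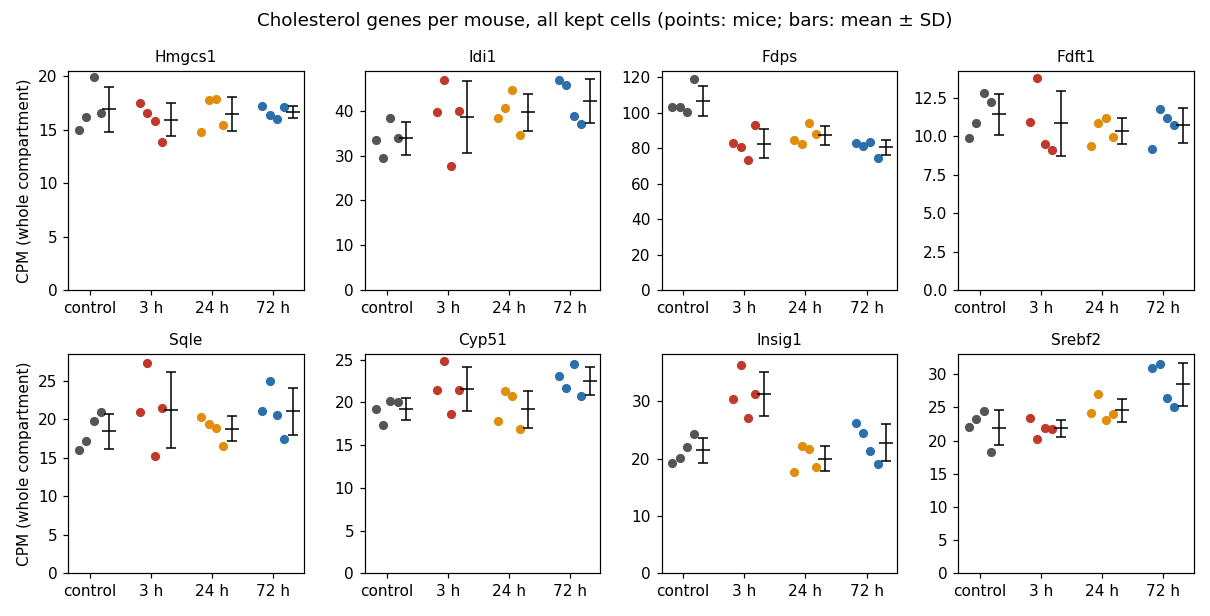
CPM of each gene (vertical axis, from 0) in the summed kept cells of each mouse at the 4 time points; points are mice and bars are mean ± SD. The 4 mice at 3 h stand above all controls for Insig1 (27.1 to 36.4 against 19.3 to 24.4 CPM), and all treated mice stand below all controls for Fdps.

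The make-up of the samples differed over the same times. HSC-like cells made up 17.7 ± 2.57% of kept cells in control mice (SD, n = 4), 32.3 ± 4.11% at 3 h, 24.2 ± 1.73% at 24 h and 29.7 ± 2.02% at 72 h. Myeloid progenitor-like cells went from 28 ± 1.89% in control to 15.3 ± 3.17%, 18.9 ± 2.21% and 14.5 ± 2.37%. In both classes all treated mice lay outside the control range. The HSC-like share also depends on the sorted HSCs that were added. The paper states that the added HSCs and the smaller capture at 3 h (1661 kept cells here) can explain the HSC rise. It regards the myeloid reduction as a true change. Of the listed marker genes, 5, 6 and 7 of 9 HSC markers were higher at 3, 24 and 72 h and 0 lower, and 12, 13 and 14 of 14 myeloid progenitor markers were lower, with 1 higher at 3 h. Of 20 G2/M genes 18, 18 and 20 were lower, and of 20 S phase genes 5, 8 and 13, with 3 higher at 3 h. The shares of all genes called are given above. Within HSC-like cells 5, 2 and 3 of the 9 HSC markers were also called in either direction, beside 20.2%, 5.37% and 4.9% of all genes. The class thus changed in some of its own markers. Of 4 LMPP markers 3, 4 and 2 were called there, and of 20 S phase genes 13, 3 and 1. Of 18 G2/M genes edgeR called 0, 0 and 2 there, with 1, 2 and 3 at an unadjusted p under 0.05. The HSC list holds Ly6a (Sca-1), whose expression the paper reports to rise after IFNα. The part of cell shares in the marker counts was not tested. Since Srebf2 and Insig1 were high in the HSC-like class and Fdps in the myeloid one, each change was recomputed with the shares of the classes held at their control values. The shares held were those of UMIs, not the cell percentages above. They covered 7 units, with unnamed clusters kept apart, and units under 3% of control UMIs were left out. In summed samples, fewer cells of a type and less RNA per cell cannot be told apart.

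**Figure D3:**
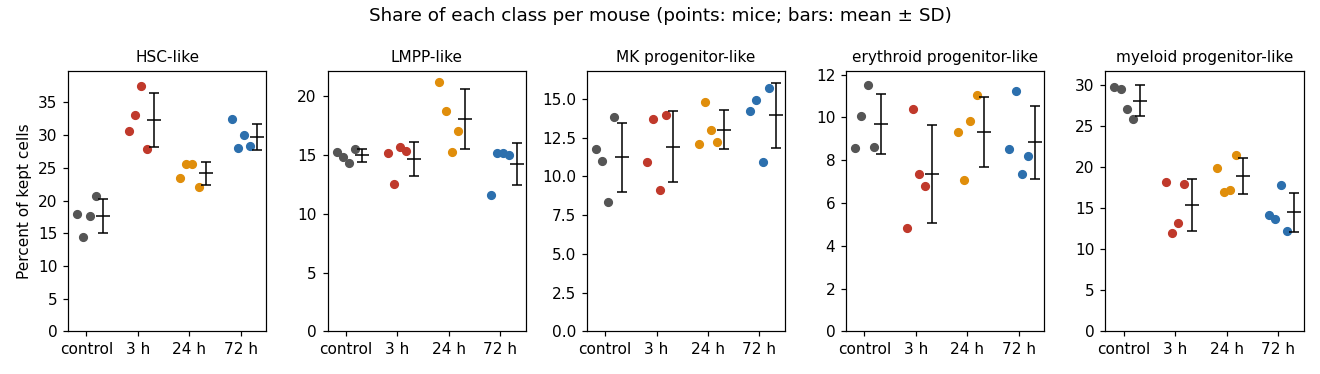
Percent of kept cells in each class (vertical axis, from 0) per mouse at the 4 time points; points are mice and bars are mean ± SD. HSC-like cells have a mean of 17.7% in control and of 24.2 to 32.3% after IFNα, and myeloid progenitor-like cells of 28% and of 14.5 to 18.9%.

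With the shares held, 2 of the 8 genes were called, both at 3 h, 1 higher and 1 lower, where 17.6% of all genes tested were called higher and 17.7% lower. At 24 h it was 7.22% and 3.22% of all genes, and at 72 h 8.05% and 5.89%. These values are from limma on log2(CPM + 0.5) over 15 mice, 3 of them control, and this recomputation was added after the data were seen. Insig1 rose by 0.39 ± 0.11 (log2, adjusted p = 0.00920) at 3 h, beside 0.58 in the plain sums. Srebf2 fell by 0.39 ± 0.10 (log2, adjusted p = 0.00442) at 3 h, from 22.7 to 17.1 CPM, where the plain sums had given -0.07. At 72 h Srebf2 differed by -0.05 ± 0.10 in place of 0.31, near 0 and not called.

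The other calls against control ended as well. Fdps differed by -0.10 ± 0.06 (adjusted p = 0.240) at 3 h, -0.07 ± 0.06 (adjusted p = 0.606) at 24 h and -0.12 ± 0.06 (adjusted p = 0.269) at 72 h. Idi1 differed by 0.14 ± 0.12 and Cyp51 by 0.07 ± 0.10 at 72 h, with adjusted p of 0.530 and 0.722. Leaving out control mouse 4 alone, with the shares as measured, ended none of these calls.

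Within the classes, Srebf2 was lower at 3 h in HSC-like and MK progenitor-like cells, and Insig1 was higher at 3 h in myeloid progenitor-like cells. The median UMIs per cell went from 11071 in control to 8872.5 at 3 h in HSC-like cells and from 34059 to 25258 in myeloid progenitor-like cells, and the part of depth in these results was not tested. In HSC-like cells 1 of 8 genes was called at 3 h, against 20.2% of all genes tested there. Srebf2 was at 52.3, 60.5, 72.4 and 38.2 CPM in the HSC-like cells of control mice and at 40.6, 31.1, 39.3 and 50.3 at 3 h. It fell by 0.61 ± 0.15 (log2, adjusted p = 0.00255). The groups overlapped through control mouse 4, whose value rests on 5 UMIs, while the 3 other control mice lay above all 4 mice at 3 h. Without that mouse the change was -0.63 (adjusted p = 0.00203), and leaving out any 1 mouse kept it between -0.71 and -0.46 and called. It was called in 11 of 13 other settings, and not with a limit of 2-fold or with labels made without listed and called genes (adjusted p = 0.0571), which kept the class of 57.2% of cells. At 24 and 72 h Srebf2 stood at 46.8 to 56.5 and 50.1 to 61.1 CPM in HSC-like cells, differences of -0.24 and -0.14 that were not called.

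In HSC-like cells, 7 of 8 genes at 3 h, 8 of 8 at 24 h and 7 of 8 at 72 h had a fitted log2 difference below 0. By the plain means of the mice it was 6, 8 and 5 of 8. The medians were -0.30, -0.28 and -0.17, beside -0.03, 0.00 and 0.00 over all genes tested. At 24 and 72 h, where 5.37% and 4.9% of genes were called, edgeR and DESeq2 called 0 of the 8, with 3 and 0 members at an unadjusted p under 0.05. The 3 at 24 h were Hmgcs1, Cyp51 and Insig1, which were singled out after their values were seen. Insig1 in HSC-like cells was at 57.4, 44.2, 47.5 and 61.1 CPM in control mice and at 29.8, 38.4, 39.8 and 38.1 at 24 h, below every control mouse (log2 -0.45 ± 0.15). At 3 h it was at 66.2, 53.9, 38.8 and 53.8 CPM, a log2 difference of 0.01 ± 0.16.

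In MK progenitor-like cells 1 of 8 genes was called at 3 h, against 10.4% of genes, and 1 at 24 h, against 3.67%. Srebf2 was at 43.7, 33.3 and 37.6 CPM in 3 control mice and at 34.6, 13.3, 14.4 and 31.6 at 3 h, where 1 mouse overlapped the controls. It fell by 0.76 ± 0.25 (log2, adjusted p = 0.0419). Insig1 was at 29.6, 39.1 and 47.2 CPM in control and at 25.5, 23.3, 24.1 and 19.9 at 24 h, below all controls, and fell by 0.71 ± 0.20 (adjusted p = 0.0307). Neither call is firm, since both were lost under DESeq2 and each was lost when any of 4 single mice was left out (for Srebf2, 3 h mouse 2 or 3 or control mouse 1 or 3, and for Insig1, 24 h mouse 2 or 4 or control mouse 2 or 3). The counts are low, with 35 to 62 UMIs of Srebf2 per mouse in control and 7 to 16 at 3 h. At 72 h, against 4.33% of genes, edgeR and DESeq2 called 0 of the 8, with 1 at an unadjusted p under 0.05.

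Of the 8 genes, 2, 0 and 1 were called in myeloid progenitor-like cells at 3, 24 and 72 h, where 24%, 15.1% and 14.6% of genes were called. Insig1 was at 12.96, 14.8, 14.6 and 20.7 CPM in control and at 17.1, 27.8, 20.3 and 26.4 at 3 h. It rose by 0.65 ± 0.16 (log2, adjusted p = 0.00260), with the groups overlapping through control mouse 4 (9 UMIs), and by 0.67 (adjusted p = 0.00210) without it. With the shares of the 3 clusters of this class held, the rise was 0.65 ± 0.19 (adjusted p = 0.0151), beside 18.2% of genes called at 3 h and 6.02% at 72 h in that fit. At 24 h its mice were at 13.5 to 17.8 CPM, and at that time edgeR and DESeq2 called 0 of the 8, with 2 at an unadjusted p under 0.05.

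Hmgcs1 was at 14.4, 13.8, 17.0 and 20.7 CPM in myeloid progenitor-like cells of control mice and at 10.9, 14.9, 10.9 and 8.61 at 3 h, a call of log2 -0.47 ± 0.18 at an adjusted p of 0.0489. That call was lost in 12 of 16 leave-one-out fits, without control mouse 4 among them (adjusted p = 0.0552), and in 12 of 13 other settings. Idi1 in the same cells was at 21.1 to 23.0 CPM in control and at 28.5, 27.4, 32.7 and 21.5 at 72 h, and rose by 0.38 ± 0.12 (adjusted p = 0.0390, and 0.0413 without control mouse 4), a call lost under DESeq2, library-size scaling, held cluster shares and 6 of 16 left-out mice (control 1, 2 or 3, 72 h 1, 2 or 3). Fdps in these cells was at 129 to 164 CPM in control and 111 to 148 at 3 h, and its differences of -0.18, -0.16 and -0.20 were not called (adjusted p = 0.0899, 0.0986 and 0.0578). With the cluster shares of this class held, the difference at 3 h was -0.24 ± 0.08 (limma, 3 mice against 3, adjusted p = 0.0481), which passed.

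LMPP-like cells (17.2%, 7.21% and 5.41% of genes called at 3, 24 and 72 h) and erythroid progenitor-like cells (13.3%, 9.56% and 5.41%) had 0 of the 8 genes called at any time by edgeR or DESeq2. At an unadjusted p under 0.05 the LMPP-like class had 1, 0 and 0 of them and the erythroid class 0, 3 and 2. Srebf2 in LMPP-like cells was at 28.7, 34.6 and 32.1 CPM in control and at 24.8, 18.9, 21.5 and 25.1 at 3 h, each below all controls, with a log2 difference of -0.50 ± 0.19 (adjusted p = 0.0774). In myeloid progenitor-like cells its difference at 3 h was -0.08 ± 0.22.

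**Figure D4:**
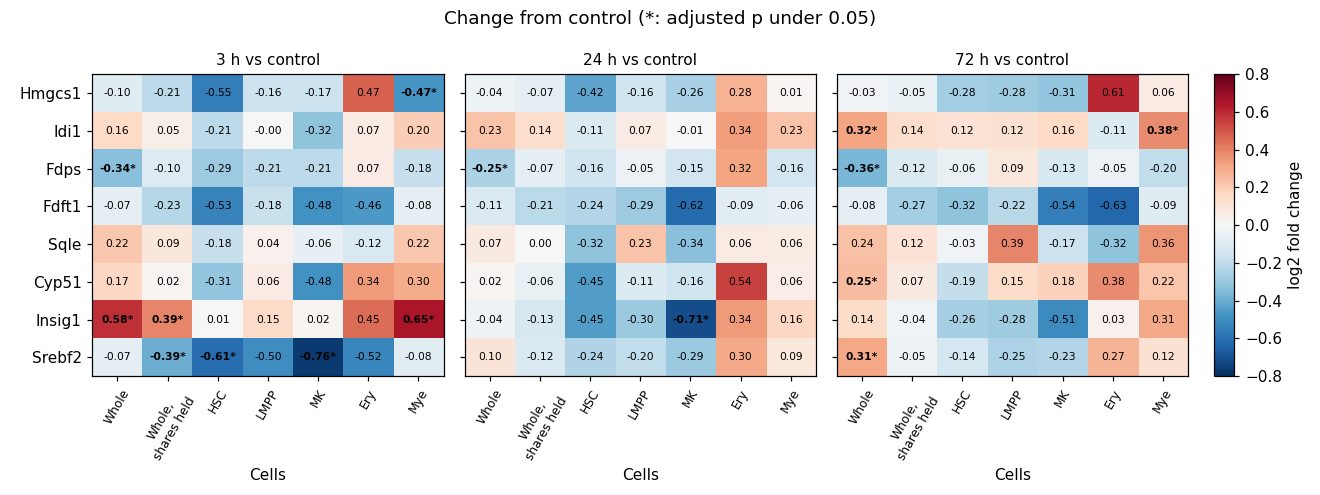
Log2 change from control of each gene (rows) in all kept cells, in all kept cells with class shares held at control, and in each class (columns), at 3, 24 and 72 h; color runs from -0.8 (blue) to 0.8 (red) and a star marks an adjusted p under 0.05. At 3 h the column with shares held has a star for Insig1 (0.39) and Srebf2 (-0.39) alone.

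Whether a change differed between lineages was tested directly, as the change in the within-mouse difference of log2 CPM between 2 classes (limma, over all genes tested in both). For HSC-like minus myeloid progenitor-like, 0 of the 8 genes were called at 3, 24 and 72 h, where 3.2%, 0.596% and 0.143% of genes were. At an unadjusted p under 0.05 it was 1 gene at each time, Insig1. The change of Insig1 at 3 h in HSC-like cells minus that in myeloid progenitor-like cells was -0.52 ± 0.22 (log2, adjusted p = 0.211), and that of Srebf2 was -0.53 ± 0.28 (adjusted p = 0.322). For HSC-like minus erythroid progenitor-like, 0 of 8 were called, against 1.68%, 0.133% and 0% of genes, with 2, 4 and 1 members at an unadjusted p under 0.05. Its lowest p was that of Cyp51 at 24 h, with -0.98 ± 0.26 (adjusted p = 0.121). A difference in response between these classes was thus not shown for any of the 8 genes, with standard errors of 0.15 to 0.58 over both pairs. In either pair, leaving out 3 h mouse 1 gave 1 call at 3 h in place of 0.

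**Figure D5:**
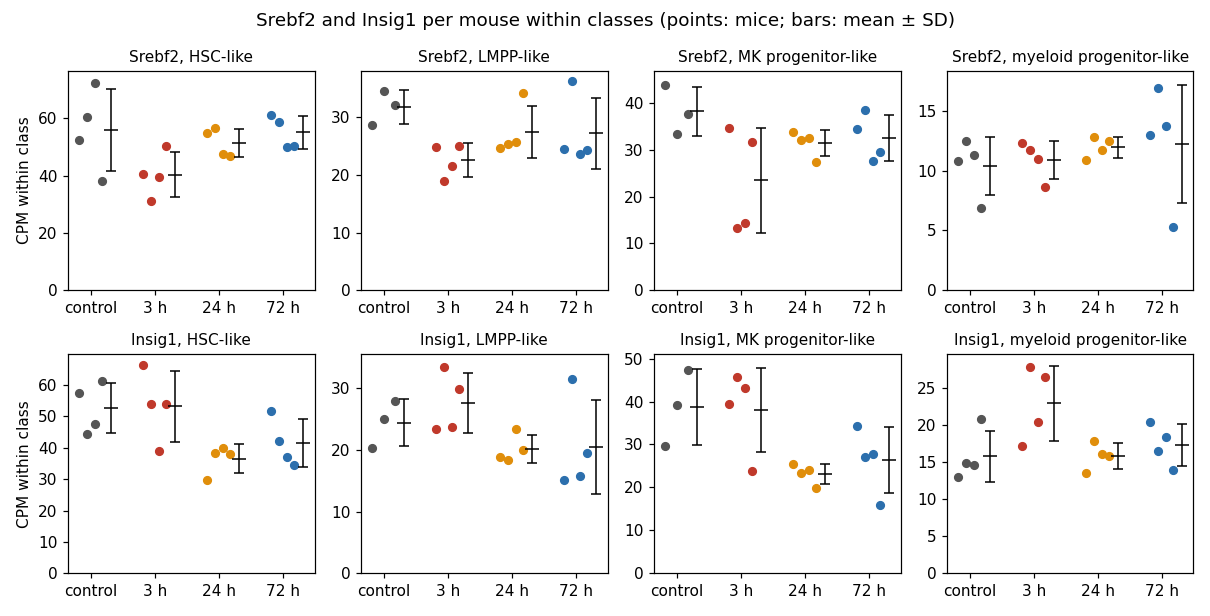
CPM of Srebf2 (upper row) and Insig1 (lower row) within 4 classes per mouse (vertical axes, from 0) at the 4 time points; points are mice with at least 10 cells and bars are mean ± SD. Srebf2 at 3 h lies between 31.1 and 50.3 CPM in HSC-like cells, and Insig1 at 3 h between 17.1 and 27.8 in myeloid progenitor-like cells.

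The other pathway genes were counted list by list in the summed cells. At 3, 24 and 72 h the median log2 change was -0.03, 0.00 and 0.02 over all genes tested. Of these, 19.7% were called higher and 19.2% lower at 3 h, 14.5% and 13.8% at 24 h, and 18.9% and 18.5% at 72 h. These shares stand beside the counts of every list below. Of 15 other cholesterol synthesis enzymes, 1 was higher and 5 lower at 3 h, 0 and 1 at 24 h, and 1 and 1 at 72 h, with medians of -0.21, -0.04 and -0.03. The one with the lowest p was mevalonate kinase (Mvk), which fell by 0.72 ± 0.12 at 3 h (adjusted p = 3.70e-05), followed by Acat2, the cytosolic thiolase of the first step, with -0.53 ± 0.12, and the sterol isomerase gene Ebp, with -0.23 ± 0.05. Ebp was also lower at 24 h (-0.14) and 72 h (-0.28), and lanosterol synthase (Lss) was higher at 72 h (0.51 ± 0.16). In HSC-like cells 14 of these 15 were tested, with 0 higher and 3 lower at 3 h, 0 and 1 at 24 h, and 0 called by edgeR at 72 h (3 at an unadjusted p under 0.05). Of all genes tested in that class, 20.2%, 5.37% and 4.9% were called at the 3 times.

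Of the 9 tested SREBP machinery genes, 0 were higher and 3 lower at 3 h, among them Erlin1 (-0.43) and the SREBP escort gene Scap (-0.32). At 24 and 72 h edgeR called 0, with 2 at an unadjusted p under 0.05 each time. The medians were -0.12, 0.02 and -0.06. Of 14 tested uptake and lysosomal export genes, 2 were higher and 4 lower at 3 h, 0 and 0 at 24 h (3 at an unadjusted p under 0.05), and 0 and 2 at 72 h, with medians of -0.11, 0.00 and -0.03. The lysosomal sterol transporter gene Stard3 rose by 0.78 ± 0.08 (adjusted p = 8.41e-08) at 3 h. Gramd1a was lower at 3 h (-0.30), Npc2 at 3 h (-0.12) and 72 h (-0.30), and Lrp1 at 72 h (-0.82, from a mean of 1.47 CPM in control to 1.06).

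Several efflux genes are targets of the sterol-sensing LXR receptors. They were listed together with the LXR receptor genes themselves and Lpcat3. Of 7 tested genes of this list, 1 was higher and 2 lower at 3 h. At both 24 and 72 h 3 were higher and 1 lower, and the medians at the 3 times were 0.01, 0.27 and 0.34. The cholesterol exporter gene Abca1 rose by 0.80 ± 0.25 at 3 h, 0.94 ± 0.20 at 24 h and 0.91 ± 0.22 at 72 h, from a mean of 2.35 CPM in control to 3.78, 4.34 and 4.20. Abcg1 was higher at 24 h (0.48), Apoe at 72 h (0.46), Lpcat3 lower at 3 h (-0.31) and Abca7 lower at all 3 times (-0.45, -0.39 and -0.35). Of 6 tested oxysterol and esterification genes, 1, Cyp39a1, was lower at 3 h (-1.25 ± 0.43), at a low level (mean 1.81 CPM in control and 0.675 at 3 h). For this list edgeR called 0 at 24 and 72 h, with 3 and 2 at an unadjusted p under 0.05. The medians were 0.05, 0.03 and 0.17.

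In the isoprenoid branch, 1 of 12 genes was higher and 3 were lower at 3 h, 0 and 2 at 24 h, and 0 and 3 at 72 h, with medians of -0.02, -0.06 and -0.10. The farnesyltransferase subunit gene Fnta fell by 0.43 ± 0.06, 0.26 ± 0.05 and 0.21 ± 0.05 at the 3 times. Coq2 was higher (0.18) and Icmt lower (-0.45) at 3 h, Dhdds was lower at 24 h (-0.34), and Icmt (-0.44) and Rce1 (-0.17) were lower at 72 h. Of 9 tested fatty acid genes under SREBP control, 2 were higher and 1 lower at 3 h, 3 and 1 at 24 h, and 3 and 0 at 72 h, with medians of -0.06, 0.11 and 0.18. The elongase gene Elovl6 rose by 1.02 ± 0.09 at 3 h (adjusted p = 1.02e-08), 0.55 at 24 h and 0.42 at 72 h, and the acyl-CoA synthetase gene Acsl3 by 0.31, 0.49 and 0.62. Scd2 was lower at 3 h (-0.69), Fasn lower at 24 h (-0.33) and Acss2 higher at 72 h (0.38). Within HSC-like cells edgeR called 1, 0 and 0 of 9 SREBP machinery genes and 2, 1 and 1 of 13 uptake genes at 3, 24 and 72 h. It called 1, 1 and 0 of 11 isoprenoid genes and 1, 0 and 0 of 8 fatty acid genes. At each time it called 0 of 6 LXR and efflux genes and 0 of 2 oxysterol genes. Where it called 0, at most 3 genes of a list had an unadjusted p under 0.05. The class shares given above moved with the summed values, and their part in them was not tested by holding the shares.

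Across mice, Idi1, Sqle, Cyp51 and Insig1, picked out after their values were seen, had the highest correlations with each other. After each time point's mean was taken out, the correlation of log2 CPM over 16 mice (a description, in which the mice of a time point share a library) was 0.83 for Idi1 with Sqle, 0.77 for Idi1 with Insig1 and with Cyp51, 0.76 for Insig1 with Sqle, 0.72 for Cyp51 with Insig1 and 0.65 for Cyp51 with Sqle. Without control mouse 4 these 6 values lay between 0.64 and 0.85. Srebf2 went with none of the other genes above 0.26 (0.39 without control mouse 4), and Fdps with Hmgcs1 gave -0.26. Of the 28 pairs, 9 were above 0.5 and 5 below 0, with a median of 0.41. No such counts were made for pairs of other genes. At 3 h, mouse 2 was the highest of the 4 for Idi1, Sqle, Cyp51 and Insig1, and mouse 3 the lowest for all 4 genes.

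The mean log2 CPM over the 8 genes was 4.60 ± 0.10 (SD, n = 4) in control mice. It was 4.66 ± 0.16, 4.58 ± 0.10 and 4.68 ± 0.10 after 3, 24 and 72 h, with overlapping mice throughout. Over the 16 mice, the 10 other genes with the highest correlation with this mean were Hsd17b7 (r = 0.79), Msmo1 (0.78), Kdm1b (0.75), Med12 (0.75), Foxp4 (0.73), Rraga (0.72), Edrf1 (0.71), Ppargc1b (0.71), Stx2 (0.70) and Mnt (0.70). The first 2, a sterol reductase and a methylsterol oxidase gene, are among the listed synthesis enzymes, and the other 8 are in no pathway list. All 10 were picked for the highest r out of all genes tested, so these values are a description with no test.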

How the data were processed

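The deposited values are UMI counts per gene and cell, which the authors made with Cell Ranger 3.1.0 on mm10 and did not normalize (the gene annotation is not given in the sources used here). Mice were told apart with the authors' Seurat hashtag calls, deposited with the counts. Cells called doublets or negative were dropped, as were cells above 5% mitochondrial counts or under 700 genes, and doublets within a mouse were not removed. Control cells were clustered in scanpy 1.11.5 (500 variable genes, 10 components, Leiden resolution 0.8), and clusters were named from fixed markers. Treated cells took the label of their nearest control cells. Counts were summed per mouse, and per mouse and class with at least 10 cells, and tested with edgeR 4.0.16 (filterByExpr, TMM, quasi-likelihood test, Benjamini-Hochberg over all tested genes, two-sided) over all mice. Differences between classes and values with shares held at control used limma 3.58.1 (prior count 2, pseudocount 0.5). Alternatives were DESeq2 1.42.0, the likelihood ratio test, other scaling, filters, cell labels and left-out mice. The edgeR test in summed and HSC-like cells, and the limma test of HSC-like minus myeloid progenitor-like, were tried on simulated counts at 3 h. Clustering, label transfer, the held shares, DESeq2 and the motif search were not. The named pathway genes are the up to 3 lowest adjusted p among called genes of each list and time, and some of these are not reported here. The members and lists were chosen with earlier results of these data known. The precision is set by counts per mouse, which are lowest in control mouse 4.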

Additional observations from a re-analysis of the deposited data

Results flagged for a closer look

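Of 54 groups of 4 mice examined for a mouse far from the rest, 1 was found, where chance gives about 1 in 20. Fdps in the summed cells of control mouse 4 stood at 119 CPM, while the other 3 control mice stood between 100.4 and 103 CPM. Its gap to the nearest mouse was 0.841 of the range of the group, above Dixon's critical value for 4 samples. This mouse has 58 kept cells, and the calls of Fdps without it are given with its values.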

How the results depend on the processing

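Of 5282 values of single genes under the alternatives, 5148 stayed called or stayed uncalled, 78 lost a call, 55 gained one and 1 called value reversed, while 191 uncalled values took the other sign. The value that reversed in sign was Srebf2 at 72 h in the summed cells. With class shares held it was -0.048 ± 0.102 (log2, ± SE), near 0 and not called. Shares held also left 0 of the 8 genes called at 24 h and 0 at 72 h (all genes 1257 and 1678) and 0 in myeloid progenitor-like cells at 72 h. This alternative, and cell labels made without listed genes and genes changed over 2-fold, were chosen after seeing the data. A limit of 2-fold left 0 members in every comparison that had any, and 831, 267 and 345 genes at 3, 24 and 72 h, 427 between 3 and 24 h and 91 between 24 and 72 h, in place of 4675, 3405, 4500, 3437 and 1094, since it adds a requirement.

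Apart from the 2-fold limit, the cause of a moved count was not tested. With class shares held, the test (limma) and the number of control mice (3) changed as well. Scaling by library size alone moved the median of all genes at 3 h by -0.15 in the summed cells and by -0.22 in HSC-like cells, and gave 3 members from 3 to 24 h, 5 in HSC-like and 2 in LMPP-like cells at 3 h and 1 in myeloid cells at 24 h. With no filter on low counts there were 2 (3 h) and 1 (24 h) in HSC-like and 2 (72 h) in myeloid cells. With 2 time points fitted alone there were 1 in HSC-like cells at 24 h, and 1 (3 h) and 2 (72 h) in myeloid cells. Without correction between libraries there was 1 in HSC-like cells at 24 h and 1 each in LMPP-like and myeloid cells at 3 h. DESeq2 gave 1 (3 h) and 0 (72 h) in myeloid and 0 (3 h) and 0 (24 h) in MK cells, and the likelihood ratio test 1 (3 h) and 2 (72 h) in myeloid cells. Removing a length trend gave 1 in myeloid and 0 in MK cells at 3 h, and at least 30 cells 1 in myeloid cells at 3 h. Labels made without listed and called genes kept the class of 57.2% of cells and gave 4, 3 and 6 in myeloid cells at 3, 24 and 72 h and 0 in MK cells at 3 h. Labels without listed genes and genes changed over 2-fold kept 95.3% and gave 0 in MK cells at 3 h.

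Hashtag numbers did not pair the mice, since deviations of same-numbered mice correlated between -0.0582 and 0.0946 over 24 pairs, with a median of 0.0104. With the number as a replicate block, 1 member was called in LMPP-like and 1 in myeloid cells at 3 h, 1 in erythroid cells at 24 h, and 0 in MK cells at 3 h and 0 at 24 h.

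Leaving out 1 mouse gave 2 to 4 members at 3 h (4 without 3 h mouse 3), 2 to 4 at 72 h (fewest without 72 h mouse 1, control mouse 1 or 2) and 0 to 1 from 24 to 72 h (without 24 h mouse 2 or 72 h mouse 4), where all genes ranged from 679 (without 72 h mouse 1) to 1158. In HSC-like cells it gave 1 to 3 at 3 h (3 without control mouse 2) and 0 to 1 at 24 h (1 without 3 h mouse 3 or 72 h mouse 1). In myeloid cells it gave 1 to 2 at 3 h, 0 to 1 at 24 h (1 without control mouse 3) and 0 to 2 at 72 h (2 without 3 h mouse 4), in MK cells 0 to 1 at 3 h and 0 to 1 at 24 h, and in both differences between classes 0 to 1 at 3 h.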

Other observations

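Markers of other cell types were tested in the same summed cells. There, 19.7%, 14.5% and 18.9% of all genes were called higher at 3, 24 and 72 h, and 19.2%, 13.8% and 18.5% lower. Of 3 tested B cell markers 2 were lower at 3 h and at 72 h, of 2 T and NK cell markers 1 was lower at each time, and of 2 macrophage markers 2 were lower at each time. Of 2 mature neutrophil markers 2, 1 and 1 were lower, and of 4 stroma and endothelium markers 0, 1 and 1. Of 6 monocyte markers 4, 4 and 3 were lower and 1, 1 and 0 higher, of 6 Ba/MC/Eo (basophil, mast cell and eosinophil) progenitor markers 5, 2 and 4 were lower and 0, 1 and 1 higher, and of 10 erythroid progenitor markers 8, 6 and 1 were lower. Of 6 MK progenitor markers 1, 3 and 3 were higher. Of 4 LMPP markers edgeR called 0 at each time, with 1, 0 and 0 at an unadjusted p under 0.05.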
